A study of Mus musculus with 26 samples.

Results

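The glucocorticoid activation and response set holds 8 genes of the 54532 gene identifiers in each count file. They are the enzyme genes Hsd11b1 and Hsd11b2, the receptor genes Nr3c1 and Nr3c2, and the response genes Fkbp5, Tsc22d3, Zbtb16 and Sgk1. The 8 genes were chosen by their role in glucocorticoid action, with earlier results of these libraries known. Their symbols were matched to Ensembl identifiers, and all 8 were found and passed the count filter. The adjusted p-values below come from tests over all genes and take no account of that choice.

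RNA from mouse aorta was sequenced in 26 libraries, all from males. Fbn1 encodes fibrillin-1, a microfibril protein of elastic tissue, and mice heterozygous for its C1041G allele are a model of Marfan syndrome. Ascending aorta of untreated C1041G/+ mice and of untreated wild-type (WT) littermates gave 4 libraries each, and so did descending aorta of each genotype. AGT-ASO, an antisense oligonucleotide (ASO) against angiotensinogen, gave 5 ascending libraries, and a control ASO gave 5. Both ASO groups carry C1041G/+, so no wild-type library received an oligonucleotide. The ascending and descending libraries of untreated mice share the numbers 1 to 8, with even numbers for C1041G/+ and odd numbers for WT. The labels used here give no age, dose or hour of harvest, and nothing states that each library is a separate animal. The p-values therefore measure the spread between these libraries, some of which may be technical.

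Glucocorticoids are adrenal steroids whose action in a tissue depends on local enzymes as well as on blood levels. The Hsd11b1 enzyme regenerates active corticosterone from its inactive keto form inside cells, and the Hsd11b2 enzyme does the reverse and so shields the mineralocorticoid receptor. Active hormone binds the glucocorticoid receptor (Nr3c1) or the mineralocorticoid receptor (Nr3c2), which then bind DNA at hormone response elements and switch on genes such as Fkbp5 and Tsc22d3. Hormone levels in blood follow a daily rhythm and rise with stress.

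Libraries held 17171652 to 28554356 counts. The aorta label was checked with 10 smooth muscle markers, which summed to 17000 to 32400 CPM (counts scaled to library size) over all libraries and had no member at 0. The 2 experiments differed in tissue content. Endothelial markers summed to 163 to 419 CPM in the antisense libraries and to 1250 to 3110 CPM in the untreated libraries. Comparisons were therefore kept within an experiment, and between the experiments treatment and experiment cannot be told apart. Heart muscle markers were called higher in ascending than in descending aorta for 8 of 12 genes in C1041G/+ and 10 of 12 in WT, and mesothelial markers for 8 of 8 and 7 of 8. Agt, the gene the oligonucleotide is directed against, was barely detected in these aortas (0.0985 to 1.51 CPM with AGT-ASO, 0.31 to 0.803 CPM with control ASO) and so does not check the treatment labels.

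The promoter sequences below show which of the genes carry the letters of a glucocorticoid response element next to an annotated start. The table of RefSeq windows (GRCm38.p6, 250 bases before to 50 after a start) held 12 printable windows for 5 of the 8 genes. Hsd11b2, Nr3c1 and Zbtb16 are named only. The motifs searched on both strands were the palindrome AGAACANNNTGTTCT, its hexamer AGAACA, which lies inside the palindrome, the C/EBP motif TTNNGCAA and the E-box CACGTG. The palindrome was found in 3 of all 32851 windows (0.00913%), the hexamer in 19%, TTNNGCAA in 10.8% and CACGTG in 7.15%. Of the 12 windows, 1 held the palindrome and 4 held a hexamer. Printed are the single window of Hsd11b1, the gene that differed by genotype, that of Fkbp5, and the windows of Tsc22d3 and Sgk1 with the most hexamers, with each hexamer in capitals.
Hsd11b1 (chr1:193242311-193242610, minus strand): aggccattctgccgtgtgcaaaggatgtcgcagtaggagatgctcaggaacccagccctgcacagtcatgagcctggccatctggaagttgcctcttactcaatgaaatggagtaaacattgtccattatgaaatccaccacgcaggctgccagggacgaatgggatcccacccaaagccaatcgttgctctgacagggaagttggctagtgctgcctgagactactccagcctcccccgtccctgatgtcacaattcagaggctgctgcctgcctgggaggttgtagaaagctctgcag
Fkbp5 (chr17:28486100-28486399, minus strand): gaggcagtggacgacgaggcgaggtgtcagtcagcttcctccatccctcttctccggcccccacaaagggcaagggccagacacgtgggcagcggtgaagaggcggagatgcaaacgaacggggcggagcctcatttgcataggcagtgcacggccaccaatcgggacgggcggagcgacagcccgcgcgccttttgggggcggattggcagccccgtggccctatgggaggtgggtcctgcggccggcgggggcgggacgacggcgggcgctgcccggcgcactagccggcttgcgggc
Tsc22d3, window 2 (chrX:140600473-140600772, minus strand): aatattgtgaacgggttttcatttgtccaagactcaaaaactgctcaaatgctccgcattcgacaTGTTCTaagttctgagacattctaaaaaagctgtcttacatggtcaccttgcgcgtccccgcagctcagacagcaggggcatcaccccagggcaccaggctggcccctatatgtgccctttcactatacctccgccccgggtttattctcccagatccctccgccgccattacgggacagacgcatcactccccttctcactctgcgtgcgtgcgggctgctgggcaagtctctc
Sgk1, window 5 (chr10:21993640-21993939, plus strand): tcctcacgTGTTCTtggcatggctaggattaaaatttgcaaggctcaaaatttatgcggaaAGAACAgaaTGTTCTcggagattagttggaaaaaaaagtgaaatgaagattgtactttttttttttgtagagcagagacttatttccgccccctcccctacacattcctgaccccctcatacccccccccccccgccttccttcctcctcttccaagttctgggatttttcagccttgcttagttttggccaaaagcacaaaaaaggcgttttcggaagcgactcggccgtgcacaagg

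Window 5 of Sgk1 holds the palindrome, its hexamers starting at positions -189 and -180 from the annotated start, and a further hexamer at -242. Windows 1 and 4 of Sgk1 hold 1 hexamer each, at -195 and -13, as does window 2 of Tsc22d3, at -185. The printed windows of Hsd11b1 and Fkbp5 hold no hexamer, Fkbp5 and window 5 of Sgk1 hold 1 E-box each, the window of Nr3c2 holds 2 C/EBP motifs and window 2 of Sgk1 holds 1. A match describes the letters only, and its absence says only that these letters are not in this window. The counts are per gene and do not tell which start was used.

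Among the enzymes, Hsd11b1 was higher in C1041G/+ than in WT ascending aorta. Hsd11b1 (ENSMUSG00000016194, chromosome 1, 193221634 to 193264075, minus strand, GRCm38) had 102.8, 95.74, 84.94 and 93.82 CPM in C1041G/+ ascending libraries 2, 4, 6 and 8. WT ascending libraries 1, 3, 5 and 7 had 37.25, 38.71, 40.61 and 34.27 CPM. The groups did not overlap, and the lowest C1041G/+ ascending library lay above all 22 other libraries of the study, the highest of which had 56.86 CPM. Means were 94.3 ± 7.35 CPM in C1041G/+ and 37.7 ± 2.68 CPM in WT (SD, n = 4 each). The log2 fold change was 1.31 ± 0.16 (standard error, SE), a 2.48-fold rise, with an adjusted p of 0.00037. Hsd11b1 was the 1 gene of the 8 called by genotype in ascending aorta, where 2.19% of all tested genes were called (342 of 15645).

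In descending aorta Hsd11b1 had 36.47, 27.89, 38.69 and 38.64 CPM in C1041G/+ libraries 2, 4, 6 and 8, against 36.89, 33.41, 19.06 and 39.22 CPM in WT libraries 1, 3, 5 and 7. These groups overlapped throughout, and the log2 fold change was 0.13 ± 0.16 with an adjusted p of 0.86. None of the 8 genes was called by genotype in descending aorta by edgeR's quasi-likelihood test, none had an unadjusted p under 0.05, and DESeq2 called 0 as well. Of all tested genes, 1.21% were called there.

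**Figure D1:**
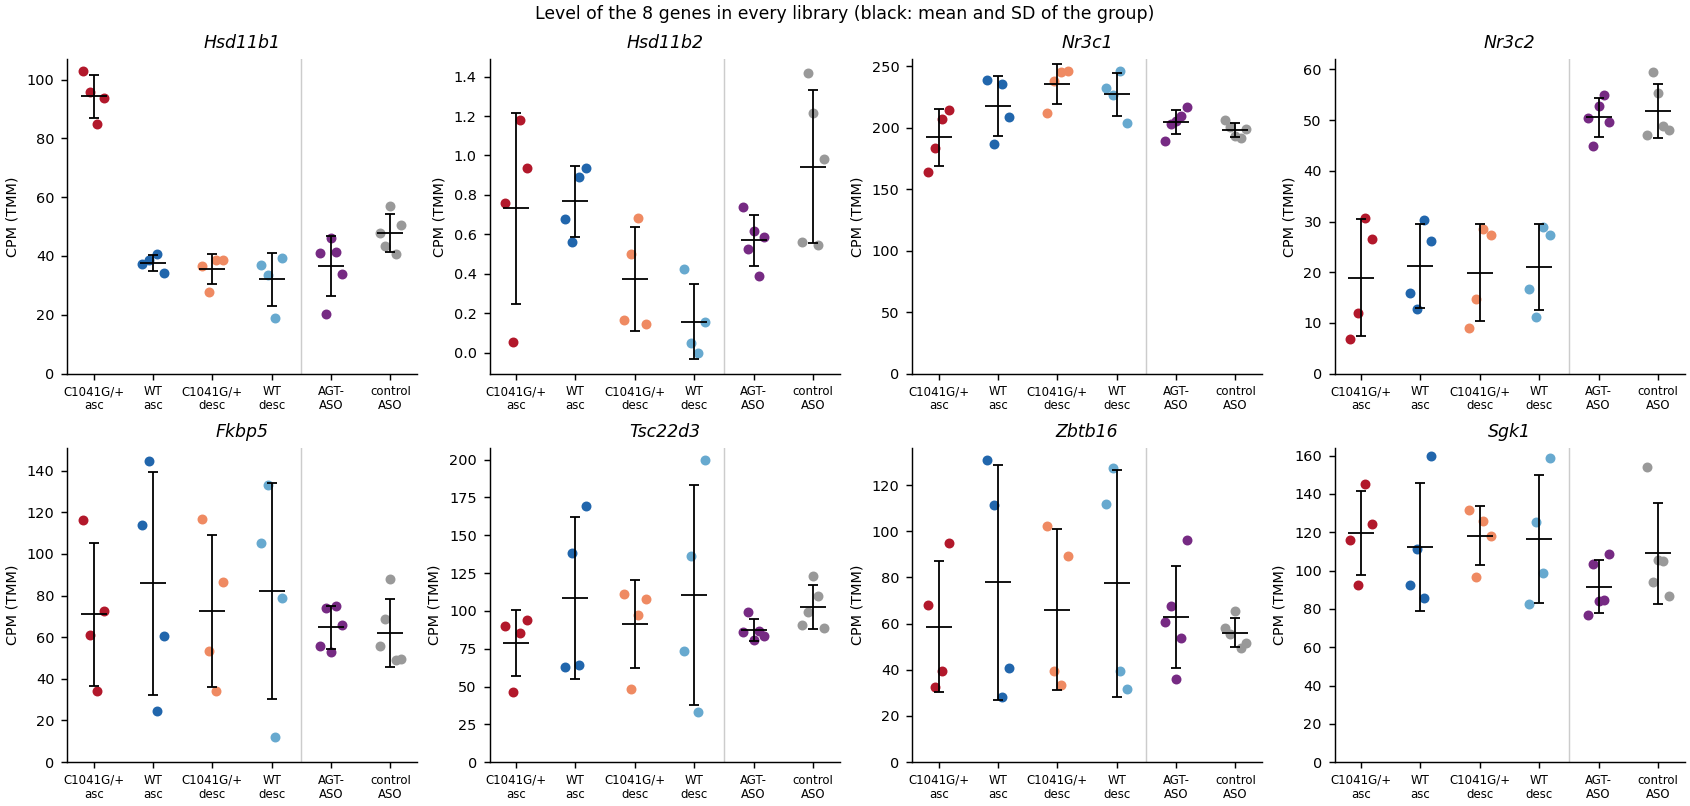
Each panel plots 1 gene, with CPM on the vertical axis and the 6 groups along the horizontal axis; points are libraries, and black marks are the mean and SD of 4 or 5 libraries. The 4 C1041G/+ ascending libraries of Hsd11b1 lie between 84.94 and 102.8 CPM, above all other libraries in that panel, while Fkbp5, Tsc22d3 and Zbtb16 spread widely within each untreated group.

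Between regions, Hsd11b1 was higher in ascending than in descending aorta of C1041G/+ mice, by a log2 fold change of 1.41 ± 0.16 with an adjusted p of 1.4e-05. In WT the corresponding log2 fold change was 0.23 ± 0.16, with an adjusted p of 0.50. The C1041G/+ ascending libraries enter both the genotype and the region comparison, so the 2 results are not independent. The interaction, which compares the genotype effect in ascending with that in descending aorta, was 1.18 ± 0.23 on the log2 scale, with an unadjusted p of 9.9e-05 and an adjusted p of 0.19. DESeq2 called it, with an adjusted p of 0.0025, and so did edgeR without WT descending library 5, the lowest of its group, with an adjusted p of 0.00035. Over all genes 0.00639% were called for the interaction, which is 1 of 15645. The difference in genotype effect between the regions therefore passed or missed the threshold depending on the tool and on 1 library.

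Markers of other cell types were set beside this rise. Fibroblast markers summed to 4510 to 5430 CPM in C1041G/+ ascending aorta and to 5470 to 7500 CPM in WT. Of the 8, edgeR called 0 higher and 1 lower (Dpt), beside 2.19% of all tested genes called. In edgeR 3 of the 8 had an unadjusted p under 0.05, beside 16.2% of all tested genes, and DESeq2 called 1. Macrophage markers summed to 523 to 668 CPM in C1041G/+ and to 419 to 503 CPM in WT, with 0 of 9 called by edgeR, 2 of 9 at an unadjusted p under 0.05, beside 16.2% of all tested genes, and 0 called by DESeq2. Adipocyte markers summed to 448 to 766 CPM in C1041G/+ and to 551 to 1080 CPM in WT. Brown adipocyte markers summed to 72.1 to 128 CPM in C1041G/+ and to 129 to 232 CPM in WT. Of the 6 tested, edgeR and DESeq2 called 0, and 3 had an unadjusted p under 0.05 in edgeR, beside the same 16.2%. Heart muscle markers summed to 310 to 675 CPM in C1041G/+ and to 288 to 1200 CPM in WT, with a median log2 fold change of -1.12. Of these 12, edgeR and DESeq2 called 0, and 5 had an unadjusted p under 0.05 in edgeR, beside the same 16.2%. Thus fibroblast and brown adipocyte sums were lower and macrophage sums higher in C1041G/+ without overlap. No marker of these 3 lists was at 0 in every library of an ascending group. Some brown adipocyte markers were near the floor, however. Ucp1 had 1 to 6 counts in C1041G/+ and 1 to 175 in WT ascending libraries, and Cpt1b and Elovl3 had too few counts to be tested. The part of these 3 lists in the level of Hsd11b1 was not tested. The adipocyte and heart muscle sums overlapped between genotypes, and the log2 fold change of Hsd11b1 was 1.33 with an adipocyte score in the model (adjusted p 0.00072) and 1.32 with a heart muscle score (adjusted p 0.00078). In bulk tissue, more cells of a type and more RNA per cell cannot be told apart.

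In the antisense experiment Hsd11b1 had 40.93, 20.15, 46.25, 41.24 and 33.95 CPM with AGT-ASO (libraries 14, 15, 18, 19 and 20), against 47.67, 43.35, 56.86, 40.71 and 50.51 CPM with control ASO (libraries 8, 12, 13, 16 and 17). The groups overlapped, and the log2 fold change of -0.39 ± 0.19 had an adjusted p of 0.43. Means were 36.5 ± 10.1 CPM with AGT-ASO, against 47.8 ± 6.31 CPM with control ASO (SD, n = 5 each). Tissue content also differed between the ASO groups. Heart muscle markers summed to 352 to 816 CPM with AGT-ASO and to 793 to 1790 CPM with control ASO. Of the 11 tested edgeR called 0, with 10 at an unadjusted p under 0.05, beside 12.7% of all tested genes, and DESeq2 called 3. Of 6 Schwann and neuron markers edgeR called 0, with 4 at an unadjusted p under 0.05, and DESeq2 called 2. With a heart muscle score in the model the log2 fold change of Hsd11b1 was -0.43 (adjusted p 0.84). The part of Schwann and neuron content in the AGT-ASO differences was not tested. All 10 antisense libraries are from C1041G/+ ascending aorta, yet all lay below the untreated C1041G/+ ascending libraries. That gap lies between experiments and was not tested.

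Ordered by mean CPM, Hsd11b1 was highest in untreated C1041G/+ ascending aorta, followed by control ASO, WT ascending, AGT-ASO, C1041G/+ descending and WT descending aorta. The gap below untreated C1041G/+ ascending aorta and the one below control ASO exceeded the SD of the groups on either side, but both lie between experiments; the other neighbours in this order did not differ beyond their SD. H6pd, which supplies the cofactor that drives the Hsd11b1 enzyme in the reducing direction, averaged 122 ± 6.83 CPM in C1041G/+ and 101 ± 12.2 CPM in WT ascending aorta, with a log2 fold change of 0.26 ± 0.11 and an adjusted p of 0.25. The genes most like Hsd11b1 in their deviations from the group means, over 26 libraries and 10711 genes, were Ms4a4d (r = 0.92), Lgi2 (r = 0.85) and Smoc2 (r = 0.84). Their own genotype log2 fold changes in ascending aorta were 0.34 ± 0.22, 0.53 ± 0.17 and 0.04 ± 0.19, with adjusted p-values of 0.48, 0.12 and 0.95. None of these 3 genes was called beside Hsd11b1.

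Hsd11b2 (ENSMUSG00000031891, chromosome 8, 105518755 to 105523988, plus strand) was close to the limit of detection, with 0 to 32 counts per library. It had 18, 1, 22 and 19 counts in C1041G/+ ascending aorta and 13, 13, 18 and 20 in WT ascending aorta. Descending libraries had 3, 9, 13 and 3 counts in C1041G/+ and 8, 1, 0 and 3 in WT. Ascending libraries of WT thus all lay above the descending ones, whereas those of C1041G/+ overlapped. The log2 fold change of ascending over descending aorta was 2.23 ± 0.77 in WT, with an adjusted p of 0.076, and 0.97 ± 0.69 in C1041G/+, with an adjusted p of 0.50. In WT the adjusted p was 0.036 by DESeq2, 0.048 with only the groups compared and 0.024 without WT descending library 1. It passed in 2 of the 8 alternatives that fitted this gene and in 1 of 8 left-out fits. Elsewhere the adjusted p reached 0.11 and 0.19.

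Hsd11b2 did not pass by genotype, with log2 fold changes of -0.07 ± 0.63 in ascending and 1.19 ± 0.83 in descending aorta, and adjusted p-values of 0.97 and 0.68. With AGT-ASO it had 15, 9, 11, 9 and 10 counts, against 13, 32, 21, 15 and 19 with control ASO, and the log2 fold change was -0.72 ± 0.41 with an adjusted p of 0.49. Scaled per kilobase of exon, Hsd11b2 had 0.398 CPM per kb in C1041G/+ ascending aorta, where Hsd11b1 had 22.2. In WT ascending aorta the levels were 0.417 and 8.87 CPM per kb. At these counts, only large differences of Hsd11b2 could be detected.

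The receptor genes differed in how steady they were. Nr3c1 (ENSMUSG00000024431, chromosome 18, 39410545 to 39519421, minus strand), the glucocorticoid receptor gene, had 164.1, 183.4, 207.3 and 214.4 CPM in C1041G/+ ascending aorta and 238.7, 187.2, 235.8 and 208.6 CPM in WT ascending aorta. Descending libraries had 211.9, 238.2, 245.7 and 246.2 CPM in C1041G/+ and 232.1, 226.4, 246.4 and 203.6 CPM in WT. The groups overlapped in every untreated comparison, and the full range over 26 libraries, 164.1 to 246.4 CPM, was 1.5-fold. By genotype in ascending aorta its log2 fold change was -0.19 ± 0.10, with an adjusted p of 0.36, and in descending aorta 0.04 ± 0.10, with an adjusted p of 0.93.

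Nr3c1 was lower in ascending than in descending aorta of every C1041G/+ number, by a log2 fold change of -0.29 ± 0.10 with an adjusted p of 0.072. With the replicate block, which compares the regions within a number and rests on a pairing that no label states, the adjusted p was 0.0083. DESeq2 gave 0.040, and the fit without C1041G/+ ascending library 8 gave 0.047. The region difference passed in 3 of 9 alternatives and 1 of 8 left-out fits. Elsewhere it did not pass, with adjusted p-values of up to 0.24 and 0.25. In WT the region difference was -0.06 ± 0.10 on the log2 scale, with an adjusted p of 0.83. With AGT-ASO Nr3c1 averaged 205 ± 9.97 CPM, against 198 ± 5.90 CPM with control ASO (SD, n = 5 each), a log2 fold change of 0.04 ± 0.06 with an adjusted p of 0.84. The 3 genes most like it were Ubr3 (r = 0.87), Pde3a (r = 0.86) and Fryl (r = 0.85).

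Across regions, 9.92% of all tested genes were called in C1041G/+ and 11.1% in WT. Of the 8 genes, edgeR called 1 in C1041G/+ (Hsd11b1), where DESeq2 called 2. In WT edgeR called 0, Hsd11b2 had an unadjusted p under 0.05, and DESeq2 called 1.

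Nr3c2 (ENSMUSG00000031618, chromosome 8, 76899442 to 77245012, plus strand), the mineralocorticoid receptor gene, separated the libraries by number and not by genotype or region. Numbers 2 and 4 had 6.73 and 11.86 CPM in C1041G/+ ascending aorta and 8.966 and 14.7 CPM in C1041G/+ descending aorta. Numbers 6 and 8 had 30.64 and 26.53 CPM in ascending and 28.59 and 27.43 CPM in descending aorta of the same genotype. In WT, numbers 1 and 3 had 15.94 and 12.82 CPM in ascending and 16.63 and 11.24 CPM in descending aorta, whereas numbers 5 and 7 had 30.3 and 26.11 CPM in ascending and 28.87 and 27.43 CPM in descending aorta. Every library numbered 1 to 4 thus lay below every library numbered 5 to 8, in both genotypes and regions. Because the libraries fall into 2 clusters, no correlation between regions is given for this gene.

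No genotype or region comparison called Nr3c2. Its log2 fold change by genotype was -0.18 ± 0.50 in ascending and -0.08 ± 0.50 in descending aorta, where adjusted p-values were 0.89 and 0.98. In the antisense experiment Nr3c2 was higher and tighter than in any untreated library, with 50.48, 44.9, 52.77, 55.04 and 49.63 CPM with AGT-ASO, against 47.11, 59.41, 55.41, 48.78 and 48.13 CPM with control ASO. These ASO groups overlapped, and the log2 fold change was -0.04 ± 0.08 with an adjusted p of 0.88. Nr3c2 shares exon bases with Gm10649 on the opposite strand, and the strand setting of the counting is not given in the sources used here, so reads of the 2 genes may be mixed.

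Arntl, which encodes a core activator of the circadian clock, also differed between the library numbers in C1041G/+ and was singled out after its values were seen. It had 27.85 and 22.97 CPM in C1041G/+ ascending libraries 2 and 4 and 9.498 and 8.122 CPM in libraries 6 and 8. In WT ascending libraries it had 21.67 and 15.28 CPM in numbers 1 and 3 and 15.17 and 13.69 CPM in numbers 5 and 7. WT descending libraries had 20.63 and 10.39 CPM in numbers 1 and 3 and 10.78 and 12.76 CPM in numbers 5 and 7. In the antisense libraries Arntl had 0.752 to 2.014 CPM, while Dbp, a clock output gene, had 202.3 to 364 CPM there and 66.71 to 173 CPM in the untreated libraries. Dbp and Nr1d1, another clock gene, did not separate these numbers. In C1041G/+ ascending aorta Dbp had 66.71 and 145.8 CPM in libraries 2 and 4 and 137.5 and 150.8 CPM in libraries 6 and 8. Nr1d1 had 176.4 and 194.2 CPM in libraries 2 and 4 and 154.6 and 227 CPM in libraries 6 and 8. The clock genes Per3 and Per2 were lower in numbers 2 and 4 than in 6 and 8 in both regions of C1041G/+. In WT their numbers 1 to 4 and 5 to 8 overlapped. In C1041G/+ ascending aorta Per3 had 14.09 and 24.9 CPM in libraries 2 and 4 and 33.43 and 37.16 CPM in libraries 6 and 8. Per2 had 28.35 and 34.73 CPM in libraries 2 and 4 and 38.47 and 61.63 CPM in libraries 6 and 8. Arntl thus ran opposite to Nr3c2 in C1041G/+ and across the experiments, whereas in WT its numbers 1 to 4 and 5 to 8 were barely separated in ascending aorta and overlapped in descending aorta. Of 18 clock genes, edgeR and DESeq2 called 0 in all 6 comparisons, with 0 to 5 at an unadjusted p under 0.05, the 5 with AGT-ASO beside 12.7% of all tested genes. The part of the clock, and of the hour of harvest, in the level of Nr3c2 was not tested. The genes most like Nr3c2 were Rbm3 (r = 0.94), Lrrc17 (r = 0.93) and Nfia (r = 0.91). Those values rest on the untreated clusters, since over the 10 antisense libraries alone r was 0.69, -0.54 and -0.19.

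**Figure D2:**
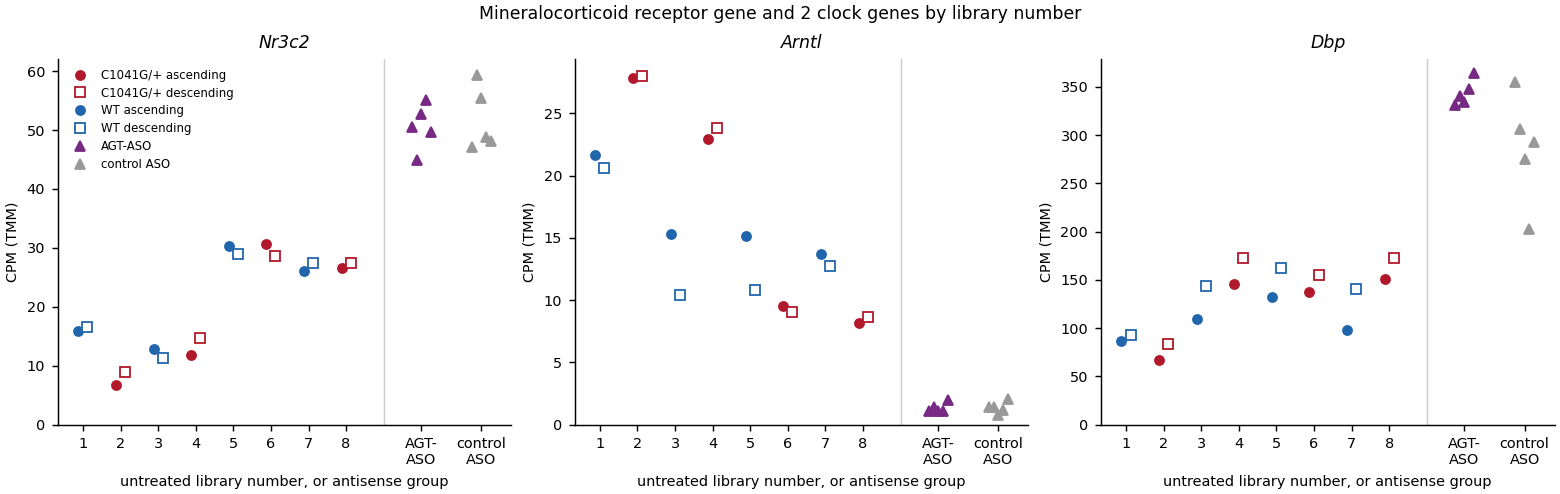
The panels plot CPM of Nr3c2, Arntl and Dbp against the number of the untreated library (filled circles for ascending, open squares for descending aorta) and for both antisense groups at the right (triangles). Nr3c2 lies between 6.73 and 16.63 CPM in numbers 1 to 4, between 26.11 and 30.64 CPM in numbers 5 to 8 and between 44.9 and 59.41 CPM in the antisense libraries.

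The 4 response genes were called in none of the 6 comparisons, and 3 of them varied widely between library numbers. Fkbp5 (ENSMUSG00000024222, chromosome 17, 28399094 to 28517527, minus strand) encodes a co-chaperone that lowers the hormone affinity of the glucocorticoid receptor and is itself induced by it. It had 116.3, 60.91, 34.02 and 72.65 CPM in C1041G/+ ascending libraries 2, 4, 6 and 8. WT ascending libraries 1, 3, 5 and 7 had 113.9, 144.4, 24.7 and 60.67 CPM. Numbers 1, 2 and 3 were high and numbers 5 and 6 low, in both genotypes, and the groups overlapped. The log2 fold change by genotype was -0.28 ± 0.66 with an adjusted p of 0.87.

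In descending aorta numbers 1, 2 and 3 of Fkbp5 were again high and numbers 5 and 6 low. C1041G/+ descending libraries 2, 4, 6 and 8 had 116.9, 53.45, 34.09 and 86.62 CPM, and WT descending libraries 1, 3, 5 and 7 had 105.2, 133.2, 12.04 and 78.59 CPM. Across the 8 numbers, deviations from the group means in ascending and descending aorta correlated at Pearson r = 0.96 and Spearman rho = 0.98. Without numbers 3 and 5, the farthest from the median, r was 0.92. The 2 libraries of a number were taken to share their source, which no label states, and may share handling as well. Over all 16291 genes the median of this r was 0.28, and 0.78% of genes reached the value of Fkbp5. By genotype in descending aorta the log2 fold change was -0.19 ± 0.66, with an adjusted p of 0.96.

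Tsc22d3 (ENSMUSG00000031431, chromosome X, 140539528 to 140600659, minus strand), known as Gilz, encodes a leucine zipper protein that carries part of the anti-inflammatory action of glucocorticoids. It had 89.93, 46.59, 85.64 and 93.67 CPM in C1041G/+ ascending libraries and 62.67, 138.5, 63.97 and 169.1 CPM in WT ascending libraries. In descending aorta it had 110.9, 48.44, 97.6 and 108.1 CPM in C1041G/+ and 73.24, 136, 33.04 and 199.6 CPM in WT. Number 7 was highest and numbers 1, 4 and 5 were lowest in both regions, and the genotypes overlapped. Ascending and descending deviations correlated at r = 0.92 (rho = 0.91, and r = 0.99 without numbers 1 and 4), a value that 2.30% of genes reached. Log2 fold changes by genotype were -0.47 ± 0.50 in ascending and -0.29 ± 0.50 in descending aorta, where adjusted p-values were 0.69 and 0.91.

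Zbtb16 (ENSMUSG00000066687, chromosome 9, 48654297 to 48836222, minus strand) encodes the zinc finger repressor PLZF and responds strongly to glucocorticoids in several tissues. It had 67.97, 32.7, 39.39 and 94.8 CPM in C1041G/+ ascending libraries and 131, 111.5, 28.32 and 40.6 CPM in WT ascending libraries. Descending libraries had 102.2, 39.47, 33.4 and 89.17 CPM in C1041G/+ and 111.8, 127.4, 39.26 and 31.6 CPM in WT. Numbers 1, 2, 3 and 8 were high, at 67.97 to 131 CPM, and numbers 4, 5, 6 and 7 low, at 28.32 to 40.6 CPM, in both regions. Because these are separate clusters, no correlation between regions is given. Log2 fold changes by genotype were -0.42 ± 0.61 in ascending and -0.24 ± 0.61 in descending aorta, where adjusted p-values were 0.78 and 0.94.

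Sgk1 (ENSMUSG00000019970, chromosome 10, 21882184 to 21999903, plus strand) encodes a kinase that acts on sodium transport and cell survival and is induced through both receptors. It had 116.1, 92.48, 145.4 and 124.2 CPM in C1041G/+ ascending libraries and 92.68, 111.5, 85.49 and 160 CPM in WT ascending libraries. In descending aorta it had 131.5, 96.43, 126.1 and 118.2 CPM in C1041G/+ and 82.62, 125.1, 98.94 and 158.9 CPM in WT. Its spread was narrower than that of the other response genes, with number 7 the highest library in both regions. Ascending and descending deviations correlated at r = 0.87 (rho = 0.71, and r = 0.71 without numbers 4 and 7). Log2 fold changes by genotype were 0.08 ± 0.21 in ascending and 0.01 ± 0.21 in descending aorta, where adjusted p-values were 0.89 and 0.99.

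**Figure D3:**
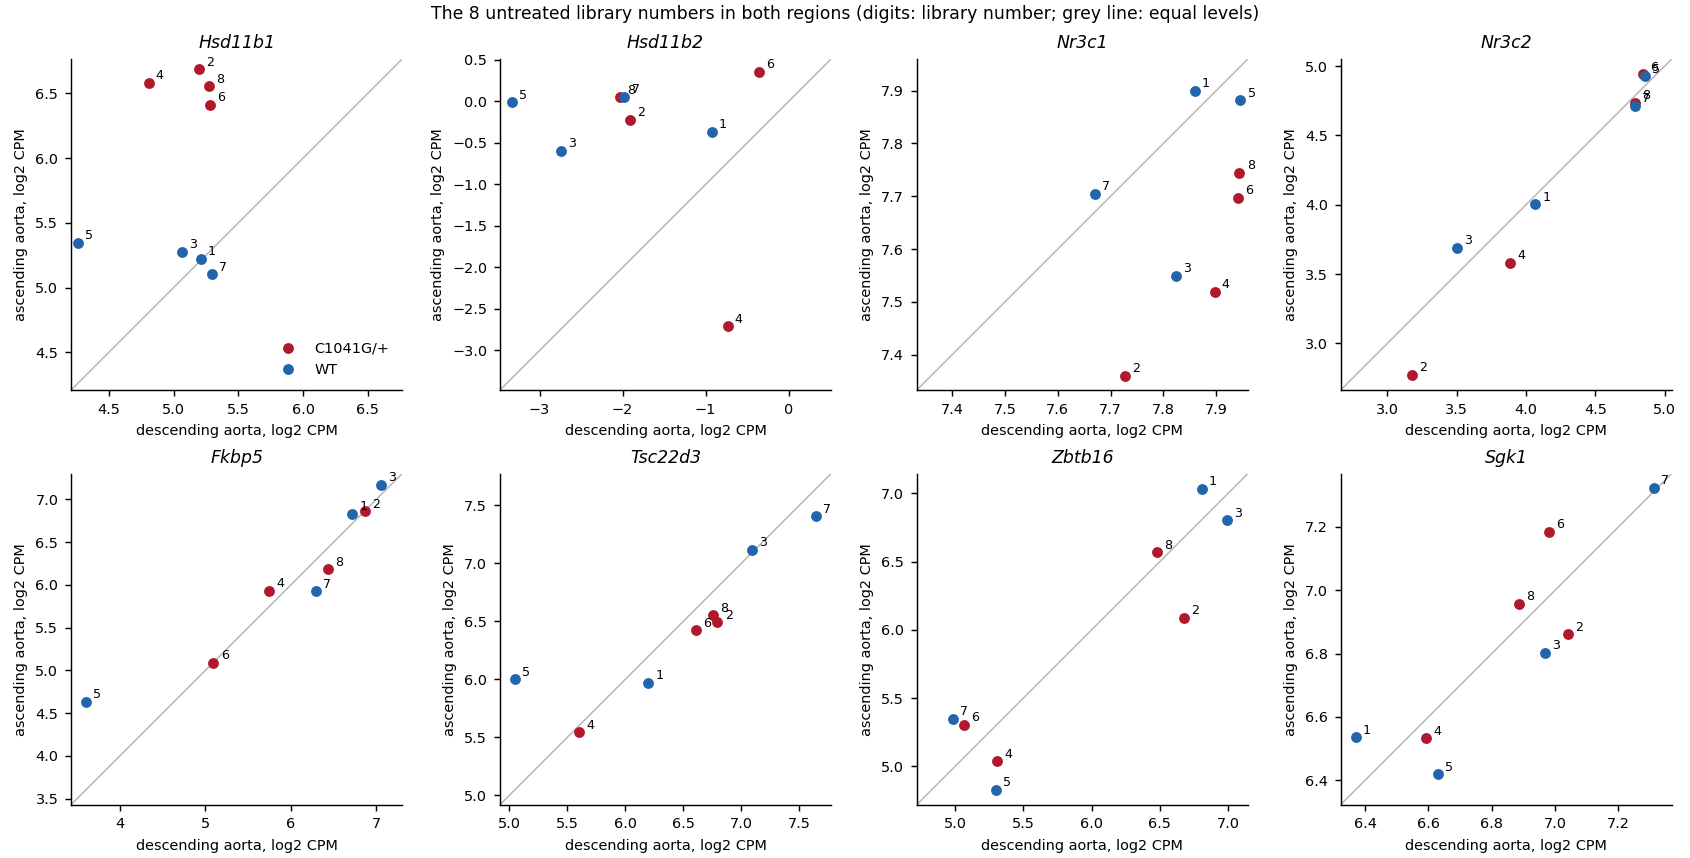
Each panel plots log2 CPM of 1 gene in ascending aorta (vertical axis) against descending aorta (horizontal axis), with 1 point per library number in red for C1041G/+ and in blue for WT. Points of Nr3c2, Fkbp5, Tsc22d3, Zbtb16 and Sgk1 run along the line of equal levels, whereas the 4 red points of Hsd11b1 lie above it.

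No region comparison called a response gene. The log2 fold change of ascending over descending aorta lay between -0.21 and 0.02 for the 4 genes in C1041G/+ and between -0.05 and 0.06 in WT, all with adjusted p-values of at least 0.89. Tsc22d3 was lower in ascending than in descending aorta of 4 of 4 C1041G/+ numbers, and the replicate block, which compares the regions within a number, gave a log2 fold change of -0.19 with an adjusted p of 0.55. Without the block the SE was 0.21 for Sgk1 and 0.50 to 0.66 for the others, for genotype as for region. Genotype changes of moderate size could thus have been missed in Fkbp5, Tsc22d3 and Zbtb16.

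The width of the spread was described with the SD of log2 CPM within untreated groups. It was 1.11 for Fkbp5, 0.92 for Zbtb16, 0.78 for Nr3c2, 0.77 for Tsc22d3, 0.33 for Sgk1 and 0.14 for Nr3c1, beside a median of 0.21 over 16291 genes. At least this spread was reached by 0.78% of genes for Fkbp5, 1.98% for Zbtb16, 4.51% for Nr3c2 and 4.71% for Tsc22d3. In the antisense libraries the same SD was 0.30 for Fkbp5, 0.38 for Zbtb16, 0.13 for Nr3c2 and 0.16 for Tsc22d3, beside a median of 0.21. Fkbp5 spanned 12-fold over the 16 untreated libraries and 1.78-fold over the 10 antisense libraries.

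Most other listed targets of the glucocorticoid receptor shared this pattern, in a list chosen with earlier results of these libraries known. Of 30 listed targets, 22 had a correlation between ascending and descending deviations at or above the upper quartile of all genes (73.3%, against 25% of all genes by definition). Their median r was 0.82, and their median SD within untreated groups was 0.42 on the log2 scale. Per1, a clock gene that glucocorticoids induce, had r = 0.99, Map3k6 had r = 0.99, Errfi1 had r = 0.95 and Fam107a had r = 0.95. Clock genes as a list were higher still, with 18 of 18 at or above the quartile and a median r of 0.90, and 1 gene, Per1, stands on both lists. Chaperones and co-regulators of the receptor had 12 of 20 at or above the quartile. The fibroblast, endothelial, macrophage, mesothelial and adipocyte marker lists had 0 of 8, 0 of 8, 0 of 9, 0 of 8 and 0 of 10, whereas the lymphocyte and thymus list had 7 of 9 and brown adipocyte markers 4 of 6. The wide spread of the targets was thus shared by the regions of a number, and so was that of lymphocyte markers, whose part in it was not tested.

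**Figure D4:**
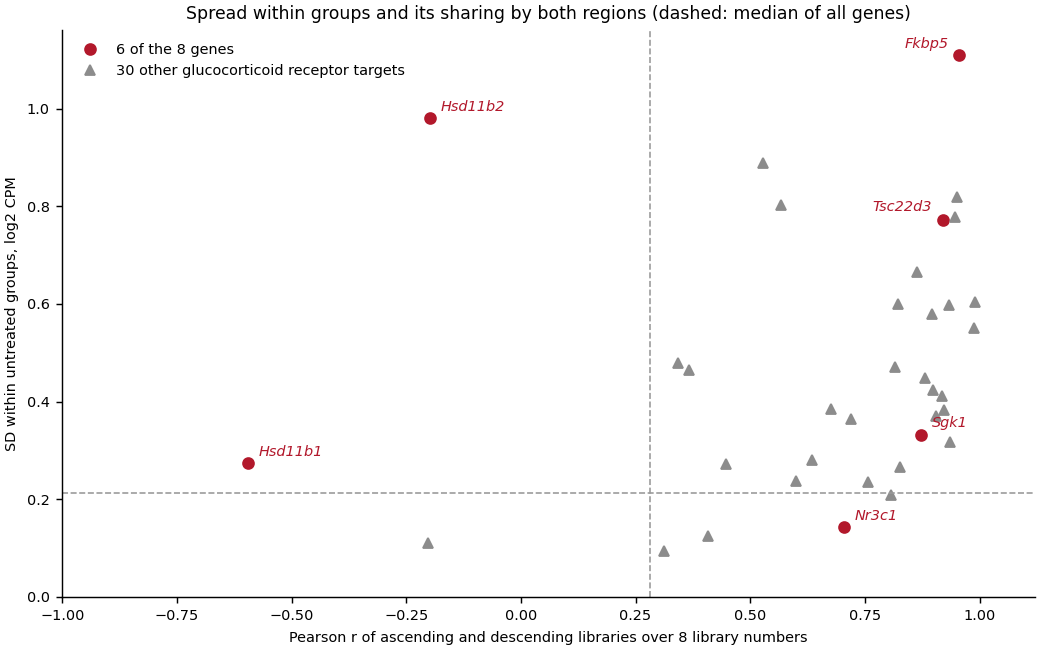
The horizontal axis is Pearson r between ascending and descending deviations over 8 library numbers, and the vertical axis is the SD of log2 CPM within untreated groups; red points are 6 of the 8 genes (Nr3c2 and Zbtb16 are left out because their libraries form clusters) and grey triangles are 30 other receptor targets. Most targets lie to the right of the dashed median of all genes (0.28), and Hsd11b1 lies far to its left, at -0.60.

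The response genes were not uniform among themselves. Averaged over the regions of a number, Tsc22d3 and Sgk1 deviated together, with r = 0.91 over 8 numbers (rho = 0.74, and r = 0.92 without the 2 farthest numbers). Fkbp5 and Tsc22d3 had r = 0.54, and Fkbp5 and Sgk1 had r = 0.17. Over the 10 antisense libraries r was 0.01 for Tsc22d3 and Sgk1, 0.65 for Fkbp5 and Tsc22d3 and 0.14 for Fkbp5 and Sgk1. No r is given between Zbtb16 and another gene over the untreated numbers, where Zbtb16 forms clusters, and its high numbers 1, 2, 3 and 8 are also the 4 highest of Fkbp5 in both regions. Over the antisense libraries Fkbp5 and Zbtb16 had r = 0.46 (rho = 0.55). The agreement of Tsc22d3 with Sgk1 was thus seen in the untreated libraries and not in the antisense libraries, a difference that was not tested. Hsd11b1 correlated with Fkbp5 at r = 0.83 over the untreated numbers (rho = 0.69, and r = 0.76 without the 2 farthest). Over the antisense libraries that r was -0.14. With Tsc22d3 the r of Hsd11b1 over the untreated numbers was 0.775, and -0.051 without the 2 farthest. With Sgk1 it was 0.508, and -0.262 without the 2 farthest. The regions of Hsd11b1 itself were related at r = -0.60. A link of Hsd11b1 to the response genes was not tested.

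Genes most like each response gene were named by the same rule, over 26 libraries and 10711 genes. For Fkbp5 they were Fam107a (r = 0.90), Glul (r = 0.90) and Map3k6 (r = 0.88). Over the antisense libraries alone these r were 0.646, 0.765 and 0.53. All 3 stand on the list of 30 receptor targets, which was chosen with earlier results of these data known. For Tsc22d3 they were Cebpd (r = 0.91) and Per1 (r = 0.89), also on that list, and Tcim (r = 0.88), with 0.499, 0.525 and 0.755 over the antisense libraries. Zbtb16 was most like Ccdc141 (r = 0.88), Spag9 (r = 0.88) and Adamts9 (r = 0.86). Those values rest in part on its untreated clusters, and over the antisense libraries alone r was 0.8, 0.741 and 0.635. Sgk1 was most like Csrnp1 (r = 0.89), Adamts1 (r = 0.87) and Atf4 (r = 0.87), none of them on the list. Hsd11b2, at its low counts, had no neighbour above 0.69 (Naaa).

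No response gene was called with AGT-ASO. Tsc22d3 had 86.34, 99.28, 80.76, 86.5 and 83.23 CPM with AGT-ASO, against 90.57, 98.96, 123.4, 110.1 and 88.68 CPM with control ASO. AGT-ASO libraries were mostly lower, but the groups overlapped, and the log2 fold change of -0.24 ± 0.09 had an unadjusted p of 0.018 and an adjusted p of 0.29. Under the 8 alternatives, which include marker scores as covariates, that change lay between -0.26 and -0.06, with adjusted p-values of 0.24 to 0.95. Heart muscle markers were mostly lower with AGT-ASO too. Fkbp5 had 55.55, 74.24, 52.94, 74.95 and 65.73 CPM with AGT-ASO, against 55.63, 68.79, 87.81, 49.21 and 49.37 CPM with control ASO, a log2 fold change of 0.05 ± 0.17 with an adjusted p of 0.94. Sgk1 had 76.83, 103.3, 84.24, 84.64 and 108.7 CPM with AGT-ASO, against 154.1, 93.91, 105.5, 104.8 and 86.71 CPM with control ASO. The Sgk1 groups overlapped too, its log2 fold change being -0.26 ± 0.15 with an adjusted p of 0.50. Zbtb16 averaged 62.8 ± 22.2 CPM with AGT-ASO, against 56.0 ± 6.25 CPM with control ASO (SD, n = 5 each), with a log2 fold change of 0.15 ± 0.22 and an adjusted p of 0.83. Of the 8 genes edgeR called 0, 1 had an unadjusted p under 0.05 (Tsc22d3), and DESeq2 called 0, where edgeR called 0.0668% of all genes (10 of 14981).

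**Figure D5:**
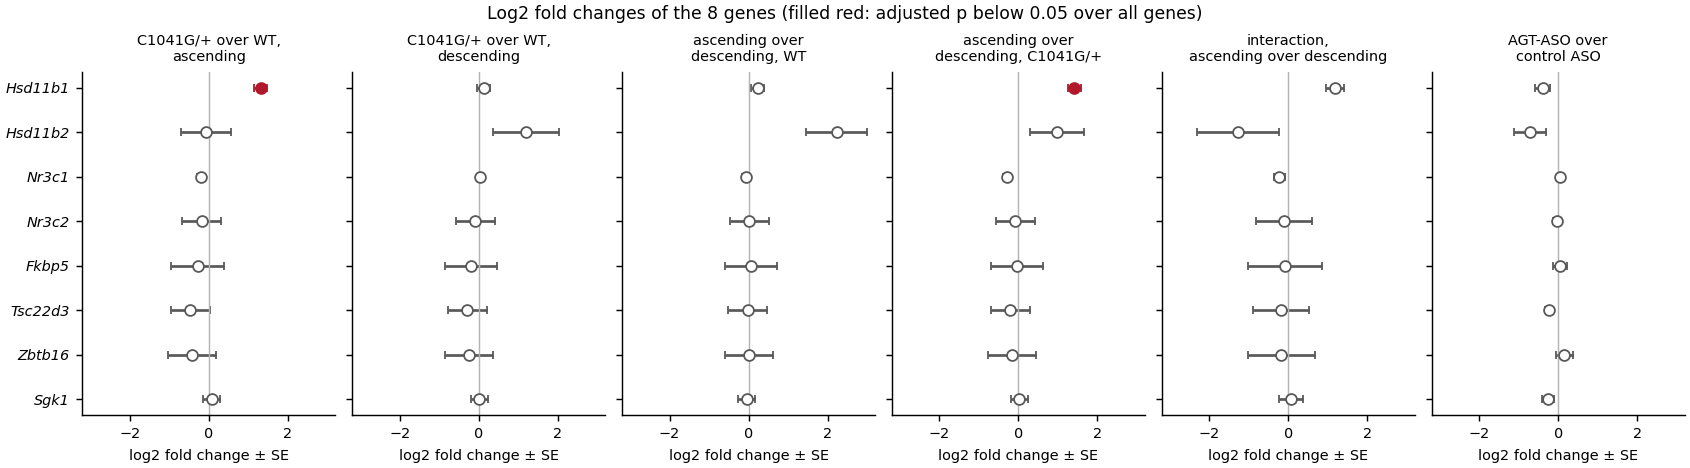
The 6 panels give the log2 fold change of each gene with its SE, 1 panel per comparison, and filled red points passed an adjusted p of 0.05 over all genes. Hsd11b1 is filled for C1041G/+ over WT in ascending aorta (1.31) and for ascending over descending aorta in C1041G/+ (1.41), and every other point is open.

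Levels per kilobase of exon ordered the 8 genes as follows in C1041G/+ ascending aorta. Nr3c1 (25.03 ± 2.995 CPM per kb), Sgk1 (24.4 ± 4.46) and Hsd11b1 (22.2 ± 1.73) did not differ beyond their SD. Tsc22d3 followed at 18.2 ± 5.03, less than its own SD below Hsd11b1. Zbtb16 had 11.1 ± 5.40, Fkbp5 7.50 ± 3.62 and Nr3c2 2.93 ± 1.77 CPM per kb, and Hsd11b2 was lowest at 0.398 ± 0.263. In WT ascending aorta Nr3c1 (28.3 ± 3.17), Tsc22d3 (25.01 ± 12.38) and Sgk1 (22.9 ± 6.85) overlapped at the top. Hsd11b1 stood at 8.87 ± 0.63 CPM per kb, beside Fkbp5 at 9.07 ± 5.65 and within the SD of Zbtb16 at 14.7 ± 9.65. Hsd11b1 therefore ranked with Nr3c1, Sgk1 and Tsc22d3 in C1041G/+ and with Fkbp5 and Zbtb16 in WT.

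The genes of the wider pathway come from lists chosen with earlier results known. Of 30 other receptor targets edgeR called 2 by genotype in ascending aorta and 1 in descending aorta, where 2.19% and 1.21% of all tested genes were called. DESeq2 called 4 in ascending and 1 in descending aorta. In edgeR 6 had an unadjusted p under 0.05 in each region, beside 16.2% of all tested genes in ascending and 10.8% in descending aorta. The 2 genes that edgeR called in ascending aorta were Anxa1, higher (log2 fold change 0.57 ± 0.08, adjusted p 0.00052), and Foxo1, lower (-0.61 ± 0.09, adjusted p 0.00088). Anxa1 encodes annexin A1, an anti-inflammatory protein induced by glucocorticoids, and averaged 693 ± 51.2 CPM in C1041G/+ and 463 ± 35.3 CPM in WT ascending aorta. It was higher in C1041G/+ descending aorta too (0.46 ± 0.08, adjusted p 0.0036), the single call of the list there. Over the 30 targets the median change was -0.18 (log2) in ascending and -0.23 in descending aorta, beside -0.01 and -0.0002 over all genes. Thus edgeR called 1 of 30 targets higher and 1 lower in C1041G/+ ascending aorta, where Hsd11b1 was higher.

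By region 2 of the 30 targets were called in C1041G/+ and 1 in WT, where 9.92% and 11.1% of all tested genes were called. Those in C1041G/+ were Lcn2, higher in ascending aorta (2.26 ± 0.57, adjusted p 0.016), and Foxo1, lower there (-0.29 ± 0.09, adjusted p 0.041), and that in WT was Gadd45b, lower in ascending aorta (-0.69 ± 0.18, adjusted p 0.016). With AGT-ASO edgeR called 0 of 29, 7 had an unadjusted p under 0.05, as had 12.7% of all tested genes, and DESeq2 called 2. Those 7 were Rgs2 (log2 fold change 0.56), Klf15 (0.37), Klf9 (0.31), Mt1 (0.26), Tgm2 (0.22), Per1 (0.21) and Lcn2 (-1.60), with adjusted p-values of 0.15 to 0.39. None of them passed the threshold in edgeR. Heart muscle markers also differed between the ASO groups, and their part in these 7 targets was not tested.

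Among 20 receptor chaperones and co-regulators, Hsp90aa1, the inducible form of the chaperone that holds the receptor ready for hormone, was called higher in C1041G/+ ascending aorta (0.84 ± 0.19, adjusted p 0.033). It averaged 1468 ± 151 CPM in C1041G/+ and 818 ± 192 CPM in WT. By edgeR no other gene of this list passed by genotype, beside 2.19% of all tested genes called in ascending aorta. There 6 of the 20 had an unadjusted p under 0.05, beside 16.2% of all tested genes, and DESeq2 called 2. In descending aorta edgeR called 0, with 4 at an unadjusted p under 0.05, beside 10.8% of all tested genes, and DESeq2 called 1. Ncoa3, a nuclear receptor coactivator, was lower in ascending than in descending aorta in C1041G/+ (-0.41 ± 0.08, adjusted p 0.0024) and in WT (-0.29 ± 0.08, adjusted p 0.028).

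Most steroid synthesis genes had few counts. Of 14 genes for steroid supply and metabolism 6 were tested and the others had at most 7 counts in a library, and Cyp11b1 and Cyp11b2, the last enzymes of corticosterone and aldosterone synthesis, had 0 counts in all 26 libraries. Of the 6, edgeR called 3 by region in each genotype, against 9.92% of all tested genes in C1041G/+ and 11.1% in WT. Abcb1a, a pump that exports glucocorticoids, was lower in C1041G/+ than in WT ascending aorta (-0.75 ± 0.18, adjusted p 0.039). It was higher in ascending than in descending aorta, by 3.31 ± 0.22 in C1041G/+ and 3.99 ± 0.22 in WT (adjusted p 1.5e-08 and 1.2e-09). Star, a cholesterol carrier of steroid synthesis, was higher in ascending aorta as well, by 1.63 ± 0.14 in C1041G/+ and 1.27 ± 0.14 in WT (adjusted p 2.2e-07 and 4.2e-06), as was Abcb1b. Mesothelial, heart muscle and nerve markers also differ between the regions, and their part in these region differences was not tested.

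Of 19 mineralocorticoid and Sgk targets and relatives 13 were tested, and none was called by genotype by edgeR in ascending aorta, with 1 at an unadjusted p under 0.05, beside 16.2% of all tested genes, and 0 called by DESeq2. Atp1b1, a sodium pump subunit, was higher in ascending than in descending aorta, by 1.54 ± 0.13 in C1041G/+ and 1.90 ± 0.13 in WT (adjusted p 1.4e-07 and 1.1e-08). Scnn1b and Scnn1g, subunits of the epithelial sodium channel, had 0 to 5 counts per library and were not tested. Among steroid receptor relatives, of which 8 of 10 were tested, Pgr was lower in C1041G/+ than in WT ascending aorta (-0.80 ± 0.18, adjusted p 0.025). By region edgeR called 2 of these 8 in each genotype, beside 9.92% of all tested genes in C1041G/+ and 11.1% in WT. Esr1 was lower in ascending than in descending aorta, by a log2 fold change of -1.15 ± 0.20 in C1041G/+ and -1.06 ± 0.20 in WT (adjusted p 0.0011 and 0.0016). Pgr was lower there as well, with -1.11 ± 0.18 in C1041G/+ and -0.72 ± 0.17 in WT (adjusted p 0.00039 and 0.0097).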

How the data were processed

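RNA from 26 mouse aorta libraries was analysed from the deposited files, which give raw, unnormalized counts for every Ensembl gene of a library. Per the submitters' processing notes, fastp and STAR 2.6.1d were used with the mouse build mm10. How reads were counted, on which strand and against which annotation, is not given in the sources used here, and names, positions and exon lengths came from GENCODE M21 on the same build (GRCm38), which named 99.93% of identifiers. Libraries held 17171652 to 28554356 counts. Reads carry no molecular identifiers, so count precision covers counting error only.

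CPM values were computed with TMM factors over all libraries, and log2 CPM with a prior count of 2. The test was edgeR's quasi-likelihood F test (version 4.0.16, R 4.3.3), two-sided, after filterByExpr and with robust dispersion, with Benjamini-Hochberg adjustment over all genes of a comparison and a threshold of 0.05. The 16 untreated libraries were fitted together (15645 genes, 12 residual degrees of freedom) and the 10 antisense libraries apart (14981 genes, 8). The steps were tested on simulated data. Alternatives were DESeq2 1.42.0, other size factors and filters, only the compared groups, marker scores as covariates, a replicate block (limma 3.58.1 for genotype) and leaving out each library.

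Same-numbered ascending and descending libraries correlated across genes at r = 0.141 to 0.273 after removal of group means, and other numbers at a mean of -0.029. Of the 8 ascending libraries, 5 correlated best with the descending library of their own number, and the others with another number. Since all 8 pairs were above 0.1, the numbers were taken to pair the regions, which no label states. The members and lists were chosen with earlier results of these data known. Besides the 8 genes, the text names up to 4 called genes with the smallest p per pathway list and the 3 genes with the highest r to each member (mean of at least 5 CPM). H6pd, Arntl, Dbp, Nr1d1, Per2 and Per3 were chosen after their values were seen. So were the targets given with unadjusted p-values or with their correlation between regions.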

Additional observations from a re-analysis of the deposited data

Results flagged for a closer look

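Among 48 groups of values checked, 8 genes in 6 groups, 2 held a library far from the rest of its group; chance alone flags about 1 in 20 groups. Tsc22d3 had 46.59 CPM in C1041G/+ ascending library 4, where libraries 2, 6 and 8 had 89.93, 85.64 and 93.67 CPM. The descending library of the same number was also the lowest of its group, at 48.44 CPM. Sgk1 had 154.1 CPM in control ASO library 8, where the other 4 control libraries had 86.71 to 105.5 CPM. Leaving out single libraries did not bring Tsc22d3 or Sgk1 past the threshold in any comparison.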

How the results depend on the processing

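By genotype in ascending aorta, 1 of the 8 genes, Hsd11b1, was called under all 11 alternatives, with a log2 fold change of 1.26 to 1.33 (adjusted p at most 0.0066), and with each library left out (count 1 to 1). The lowest value came from leaving out WT ascending library 1 and C1041G/+ ascending library 2 together, an alternative added after seeing the data, as was a term for numbers 1 to 4 against 5 to 8. By genotype in descending aorta and with AGT-ASO the count was 0 under every alternative and 0 to 0 with each library left out. Between regions of WT it was 0, but 1 (Hsd11b2) by DESeq2 and with only the groups compared, and 0 to 1 over the left-out libraries. Between regions of C1041G/+ it was 1, but 2 (Hsd11b1 and Nr3c1) by DESeq2, with the replicate block and with the term for numbers, and 1 to 2 over the left-out libraries. The interaction count was 0, but 1 (Hsd11b1) by DESeq2, and 0 to 1 over the left-out libraries; there the fit of the compared groups is the fit of all 16 libraries. The replicate block changed no other call of the 8 genes. No called gene of the set changed sign.

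Counts over all genes moved more. By genotype in ascending aorta 342 genes were called, but 64 to 779 under the alternatives and 163 to 347 with 1 library left out; with AGT-ASO 10 were called, but 0 to 277 and 0 to 180. In descending aorta 189 became 162 to 414, and the interaction's 1 became 1 to 38. Causes were not tested. Depth limits Hsd11b2, at 0 to 32 counts per library.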
